A study of Homo sapiens with 8 samples.

Results

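NF-kB is a family of dimeric transcription factors that IkB proteins hold in the cytoplasm until a signal such as an inflammatory cytokine leads to the breakdown of the inhibitor. The freed dimers then switch on cytokines and chemokines, together with their own inhibitors, so that the genes of the negative feedback are also a readout of recent NF-kB activity. Its secreted products include chemokines that attract neutrophils and cytokines that act back on the cells that release them.

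The genes described here are 10 of the 57820 in the deposited count table of J82 cells, a long-established line from a human bladder tumour: the subunits NFKB1, NFKB2 and RELB, the feedback inhibitors NFKBIA and TNFAIP3, and the cytokines and chemokines IL6, CXCL8, CXCL1, CXCL2 and IL1B. They were taken by symbol, through the Ensembl identifier without its version, and not by a cut on their values. The list was, however, chosen with earlier results of the same data known. RNA-seq was performed on side-population (SP) cells, which keep little of the dye Hoechst, and on the remaining non-side-population (NSP) cells, sorted from the same J82 line, with no drug treatment named in the labels, after the same dye incubation and the exclusion of dead cells. There were 4 libraries of each, with the replicate numbers 1 to 4 in both groups. The study used SP cells as a model of drug resistance. SP is a gate on dye efflux in 1 cell line, and the labels do not say whether the replicates are separate cultures, so the p-values measure the spread between these libraries.

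Levels are given as CPM, the counts of a gene scaled by the TMM-normalized size of its library. The libraries held 1431823 to 1697218 counts in SP cells and 1489033 to 2073526 in NSP cells. These totals are far below the number of raw reads per sample that the study reports, and the reason was not tested. Mitochondrially encoded genes took 3.46% to 7.57% of the counts in SP and 1.65% to 4.01% in NSP libraries, and the part of this share in the results below was not tested. Epithelial markers were present, with KRT8 at 3298 ± 485 (SP) and 4022 ± 737 (NSP) CPM (mean ± SD of 4 libraries), although EPCAM and CDH1 did not have enough counts for a test and KRT7 and the mesenchymal marker FN1 were lower in SP cells (log2 fold changes -1.35 and -1.25, adjusted p = 0.00342 and 8.63e-04, edgeR's quasi-likelihood test). Of 8 leukocyte markers, PTPRC, CD3E and MS4A1 had 0 counts in all 8 libraries, which allows up to 0.226 CPM over the 8 libraries together. The summed level of that list was 49.8 to 98.0 CPM in SP and 24.2 to 62.9 CPM in NSP libraries. CD14 made up most of it, with 67.0 ± 22.7 (SP) and 34.2 ± 17.2 (NSP) CPM, and its difference did not pass the test described below (log2 fold change 0.96, adjusted p = 0.135, edgeR). CD14 was called higher in SP cells when same-numbered libraries were blocked (1.014, adjusted p = 2.77e-06) and without a filter on low counts (0.94, adjusted p = 8.70e-04). The part of this list in the results below was not tested.

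The proximal promoters of the feedback genes and cytokines are shown first, because NF-kB acts on these genes through short DNA elements near their start. RefSeq promoters (GRCh38.p14) were found for 9 of the 10 genes, RELB being the other one, and were searched on both strands of the 250 bases before each annotated start for the kappaB consensus motif of 10 bases. It was present at 8 of the 12 annotated starts of these genes, which belong to 7 of the 9, and 9.96% of all 35116 promoters of the same length held it. The 100 bases before the start are given 5′ to 3′ on the strand of the gene, with matches in capitals. A run of over 10 capitals holds overlapping matches.
NFKBIA, chr14:35404750-35404849, minus strand: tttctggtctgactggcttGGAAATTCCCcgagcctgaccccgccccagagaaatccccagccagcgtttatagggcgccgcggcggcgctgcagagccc
TNFAIP3, chr6:137867159-137867258, plus strand: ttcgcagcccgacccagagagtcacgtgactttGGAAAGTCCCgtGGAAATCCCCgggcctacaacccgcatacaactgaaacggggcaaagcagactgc
IL6, chr7:22727100-22727199, plus strand: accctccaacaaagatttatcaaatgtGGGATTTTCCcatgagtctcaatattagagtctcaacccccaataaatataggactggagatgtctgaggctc
CXCL8, chr4:73740469-73740568, plus strand: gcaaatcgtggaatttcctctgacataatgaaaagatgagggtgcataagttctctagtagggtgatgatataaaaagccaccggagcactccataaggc
CXCL1, chr4:73869293-73869392, plus strand: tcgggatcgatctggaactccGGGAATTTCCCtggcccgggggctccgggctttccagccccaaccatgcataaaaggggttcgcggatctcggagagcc
CXCL2, chr4:74099196-74099295, minus strand: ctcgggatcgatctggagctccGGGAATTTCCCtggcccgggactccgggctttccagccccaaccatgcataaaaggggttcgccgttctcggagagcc

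In these sequences the match began 81 bases before the start of NFKBIA and 73 bases before that of IL6. TNFAIP3 had a pair of matches, which began 67 and 55 bases before its start. CXCL1 and CXCL2 carried the same element at nearly the same place, beginning 79 and 78 bases upstream. NFKB1 had a match 49 bases before 1 of its 2 annotated starts, and NFKB2 had matches at 2 of 3 starts. The windows of CXCL8 and IL1B held no match of this consensus. The CXCL8 window does hold ggaatttcct, which differs from the CXCL1 match GGAATTTCCC only in its last base. A match describes the letters of the window and is not evidence of binding, and the lack of a match is not evidence that a site is absent.

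Genes with enough counts were compared between the groups by edgeR's quasi-likelihood test. A gene was called where its p-value, adjusted by Benjamini-Hochberg over all tested genes, was under 0.05 and its fold change over 1.3. Of the 10 genes, 8 passed the filter on low counts. The calls were NFKBIA, TNFAIP3 and IL6, all higher in SP cells, and 0 genes went the other way. Among all 9309 tested genes 3.66% were called, 1.63% higher and 2.03% lower in SP. The median log2 fold change of the 8 was 0.82, against 0.01 over all tested genes. The 10 genes were chosen with earlier results of the same data known, so the count is a description. In sorted bulk RNA, more RNA per cell and more cells that express a gene cannot be told apart.

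**Figure D1:**
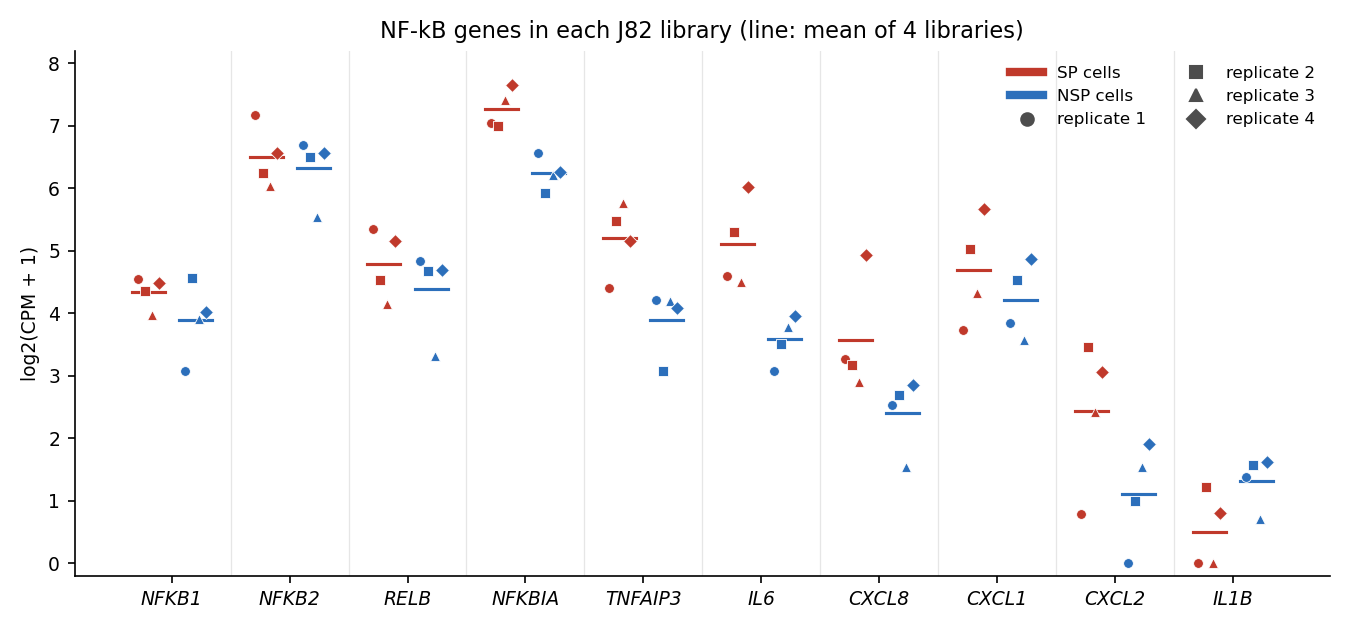
Level of the 10 NF-kB genes in each library, as log2(CPM + 1) on the vertical axis, for SP cells (red) and NSP cells (blue); the symbol shows the replicate number and the line the mean of 4 libraries. The SP and NSP values do not overlap for NFKBIA, TNFAIP3, IL6 and CXCL8, and the CXCL8 value of SP replicate 4 lies far above the other SP libraries.

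The feedback inhibitors were higher in SP cells. NFKBIA encodes IkB-alpha, the inhibitor that binds NF-kB dimers in the cytoplasm and is itself a rapid NF-kB target. The gene (ENSG00000100906.6) is at chr14:35870285-35873955, minus strand (this and the other gene positions are in GRCh37), and no annotated gene lies across it on the other strand. Its values were 130, 127, 170 and 199 CPM in SP replicates 1 to 4 and 93.6, 59.8, 72.7 and 75.4 CPM in NSP replicates 1 to 4. Every SP library was above every NSP library. Mean levels were 157 ± 34.6 and 75.4 ± 13.95 CPM (SD, n = 4 each), a ratio of 2.08. SP exceeded NSP by a log2 fold change of 1.06 (standard error 0.19, adjusted p = 0.00584, edgeR's quasi-likelihood test). Fits that dropped 1 library gave 0.91 to 1.18, and NFKBIA was called in all 8 of them.

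TNFAIP3 encodes a ubiquitin-editing enzyme that shuts down signalling from the TNF receptor to the IkB kinase. The gene (ENSG00000118503.10) is at chr6:138188351-138204451, plus strand. The 4 SP libraries held 20.2, 43.6, 53.6 and 34.6 CPM and the 4 NSP libraries 17.6, 7.41, 17.2 and 15.9 CPM, in the order of the replicate numbers. The groups did not overlap, but SP replicate 1 was only 1.15 times NSP replicate 1, whereas SP replicate 2 was 5.88 times NSP replicate 2. TNFAIP3 had a log2 fold change of 1.41 (standard error 0.31, adjusted p = 0.0189, edgeR's quasi-likelihood test). It was not called without SP replicate 2 (log2 fold change 1.34), SP replicate 3 (1.19) or NSP replicate 2 (1.17), with adjusted p-values of 0.0534, 0.0587 and 0.0682. The exons of the lncRNA WAKMAR2 overlap those of TNFAIP3 by 95 bp on the other strand, and WAKMAR2 had 2 to 4 counts per library.

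Among the cytokines, IL6 had the largest fold change of the 8 tested genes and ranked 30 from the top among the 9309. IL6 encodes a secreted cytokine that activates STAT3 through the receptor subunit IL6ST. The gene (ENSG00000136244.7) is at chr7:22765503-22771621, plus strand. Its SP values were 23.1, 38.2, 21.7 and 64.0 CPM and its NSP values were 7.45, 10.4, 12.8 and 14.5 CPM in replicates 1 to 4. The lowest SP library was above the highest NSP library, and SP replicate 4 was the highest of all. These values rest on 32 to 87 counts per SP and 14 to 21 per NSP library. SP over NSP gave a log2 fold change of 1.70 (standard error 0.34, adjusted p = 0.012, edgeR's quasi-likelihood test), and 1.297 without SP replicate 4, still called, with a range up to 1.90. On log2(CPM + 1), a two-sided exact permutation test gave p = 0.0286 for NFKBIA, TNFAIP3, IL6 and CXCL8, the smallest p that 4 libraries against 4 allow. These are the 4 of the 8 tested genes whose groups did not overlap, where this held for 9.75% of all tested genes, 4.78% with SP above and 4.97% with SP below.

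CXCL8 encodes a chemokine that attracts neutrophils, and its difference rested mainly on 1 library. The gene (ENSG00000169429.6) is at chr4:74606236-74609433, plus strand. Its values were 8.65, 8.04, 6.50 and 29.4 CPM in SP and 4.79, 5.43, 1.91 and 6.22 CPM in NSP replicates 1 to 4. These come from 12 counts in each of the SP replicates 1 to 3, 40 in SP replicate 4 and 3 to 11 in each NSP library. CXCL8 passed the filter on low counts only through its SP libraries. Its part in the median and in the non-overlap of the 8 tested genes therefore rests on the group where it was high. Its log2 fold change of 1.46 (standard error 0.49) did not pass (adjusted p = 0.126, edgeR's quasi-likelihood test), and it was 0.72 without SP replicate 4. When same-numbered libraries were blocked, CXCL8 was called (log2 fold change 1.38, adjusted p = 0.00247, edgeR), where 5.89% of all tested genes were called higher.

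CXCL1 and CXCL2 encode closely related chemokines that act on the same neutrophil receptor as CXCL8. CXCL1 (ENSG00000163739.4, chr4:74735110-74737025, plus strand) had 12.2, 31.5, 18.95 and 50.1 CPM in SP and 13.3, 22.2, 10.8 and 28.3 CPM in NSP replicates 1 to 4. The groups overlapped, with SP replicate 1 among the lowest libraries. The log2 fold change of 0.59 (standard error 0.38) was not called (adjusted p = 0.483, edgeR's quasi-likelihood test), and it was 0.16 without SP replicate 4. CXCL2 (ENSG00000081041.8, chr4:74962757-74964913, minus strand) had too few counts for the test, with 1, 15, 8 and 10 in SP and 0, 2, 3 and 4 in NSP replicates 1 to 4. SP was above NSP in each of the 4 same-numbered pairs, but SP replicate 1 lay below most NSP libraries (two-sided exact permutation test on log2(CPM + 1), p = 0.143). Of the distinct stretches of 50 bases in its annotated transcripts, the read length used here, 13.4% also occur in transcripts of other genes, namely CXCL1 and CXCL3, against 4.57% for CXCL1. How the counting treated reads that fit several genes is not stated, so both values are uncertain to that extent.

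IL1B, which encodes a cytokine that itself activates NF-kB, was close to the limit of detection and was the 1 gene of the 10 with a lower mean in SP cells. The gene (ENSG00000125538.7) is at chr2:113587328-113594393, minus strand. Its counts were 0, 2, 0 and 1 in SP and 3, 4, 1 and 3 in NSP replicates 1 to 4. SP was below NSP in all 4 same-numbered pairs, while the groups overlapped (two-sided exact permutation test on log2(CPM + 1), p = 0.0857). It was not in the edgeR test, and a difference was not detectable at this depth.

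The subunits differed less. NFKB1 and NFKB2 encode the precursors of the DNA-binding subunits that lack an activation domain of their own, and RELB encodes the partner of processed NFKB2 in the alternative pathway. NFKB1 (ENSG00000109320.7, chr4:103422487-103538459, plus strand) had 22.3, 19.4, 14.6 and 21.3 CPM in SP and 7.45, 22.7, 14.03 and 15.2 CPM in NSP replicates 1 to 4. NFKB2 (ENSG00000077150.13, chr10:104153867-104162281, plus strand) had 143, 75.1, 64.4 and 93.5 CPM in SP and 103, 89.4, 45.3 and 93.3 CPM in NSP replicates 1 to 4. RELB (ENSG00000104856.9, chr19:45504719-45541450, plus strand) had 39.6, 22.1, 16.8 and 34.6 CPM in SP and 27.7, 24.7, 8.93 and 24.9 CPM in NSP replicates 1 to 4. The groups overlapped for all 3 subunits. Their log2 fold changes were 0.37 (standard error 0.30) for NFKB1, 0.17 (standard error 0.26) for NFKB2 and 0.36 (standard error 0.32) for RELB. The adjusted p-values were 0.599, 0.806 and 0.637 (edgeR's quasi-likelihood test). For each subunit, SP was above NSP in 3 of 4 same-numbered pairs, and the pair with replicate number 2 was the exception. NFKB2 changed sign without SP replicate 1, at -0.10, and without NSP replicate 3, at -0.03.

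**Figure D2:**
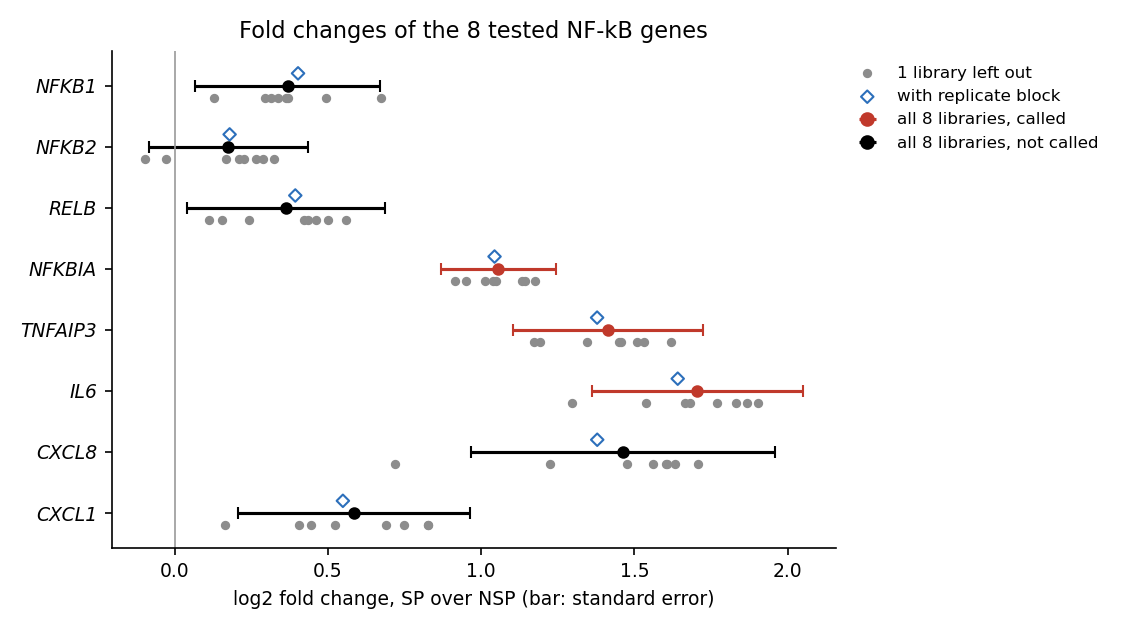
Log2 fold change of SP over NSP cells on the horizontal axis for the 8 tested genes, with bars for the standard error; red marks called genes, grey points are fits with 1 library left out and open diamonds the fit with the replicate block. NFKBIA, TNFAIP3 and IL6 lie above 0 in every fit, CXCL8 drops to 0.72 without SP replicate 4, and NFKB2 lies on both sides of 0.

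The SP libraries differed among themselves in which gene was highest. The ratio of the highest to the lowest SP library was 1.57 for NFKBIA, 2.66 for TNFAIP3, 2.96 for IL6, 4.09 for CXCL1 and 4.53 for CXCL8. SP replicate 4 had the highest values of NFKBIA, IL6, CXCL8 and CXCL1. SP replicate 3 had the highest TNFAIP3 value and the lowest SP values of IL6 and CXCL8. SP replicate 1 had the highest NFKB1, NFKB2 and RELB values and the lowest SP values of TNFAIP3, CXCL1 and CXCL2. The SP-to-NSP ratio of same-numbered libraries ran from 1.39 to 2.65 for NFKBIA and from 1.70 to 4.41 for IL6.

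Per kb of annotated exon, the level was highest for NFKBIA, with 37.3 to 58.8 CPM per kb in SP and 17.6 to 27.6 in NSP libraries. CXCL1 followed with 8.99 to 36.8 CPM per kb in SP and 7.96 to 20.8 in NSP, and NFKB2 with 11.5 to 25.6 and 8.11 to 18.4. RELB had 5.60 to 13.2 CPM per kb in SP and 2.98 to 9.23 in NSP libraries, and IL6 5.01 to 14.8 and 1.72 to 3.36. TNFAIP3 had 3.13 to 8.32 CPM per kb in SP and 1.15 to 2.72 in NSP, and CXCL8 2.51 to 11.4 and 0.739 to 2.40. CXCL2 was at 0.515 to 7.19 CPM per kb in SP and 0 to 1.98 in NSP, NFKB1 at 0.932 to 1.42 and 0.475 to 1.45, and IL1B at 0 to 0.445 and 0.212 to 0.689. In NSP cells the ranges of neighbouring genes in this order overlapped throughout, whereas in SP cells NFKBIA lay above CXCL1 without overlap. The exon length is the union of all annotated transcripts, which lowers the value of genes with many isoforms such as NFKB1.

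The strand setting of the counting is not stated, and IL6 has partners on the other strand. The exons of the coding gene STEAP1B overlap those of IL6 by 46 bp, and STEAP1B had 2 counts over the 8 libraries together. The lncRNA IL6-AS1 (ENSG00000179428.2) is at chr7:22765014-22767239 on the minus strand, and 428 bp of its 1364 bp of exon lie across exons of IL6. It had 328, 477, 226 and 527 counts in SP and 109, 246, 149 and 164 in NSP replicates 1 to 4, against the 14 to 87 of IL6. In CPM these were 236, 320, 122 and 388 in SP and 58.0, 121, 95.03 and 113 in NSP cells, so that the lowest SP library lay just above the highest NSP library. IL6-AS1 was called higher in SP cells, with a log2 fold change of 1.46 (standard error 0.29, adjusted p = 0.0118, edgeR's quasi-likelihood test), and was called with each library left out. The ratio of IL6-AS1 to IL6 counts was 5.65 to 10.2 in SP and 7.45 to 11.7 in NSP libraries, and these ranges overlapped.

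Per kb of exon, IL6-AS1 had 24.1 times the counts of IL6. Among 441 lncRNAs paired with a coding gene across the strands, with 25% to 50% of the exon length of the lncRNA in the overlap and at least 100 counts, the lncRNA was the denser one in 74.8%, with a median ratio of 11.6. Among 595 such pairs with 50% or more in the overlap, the lncRNA was denser in 88.2%, with a median ratio of 36.7. The excess was therefore not particular to IL6, and its part in the levels given here was not tested. Without a stated strand setting, reads from IL6 and from IL6-AS1 cannot be told apart in the overlap. Of the other 9 genes, TNFAIP3 alone has an exon overlap on the other strand. The levels of genes without such an overlap may also depend on the strand setting, which was not tested. The annotation used for this is later than the one behind the counts and may differ in exons.

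**Figure D3:**
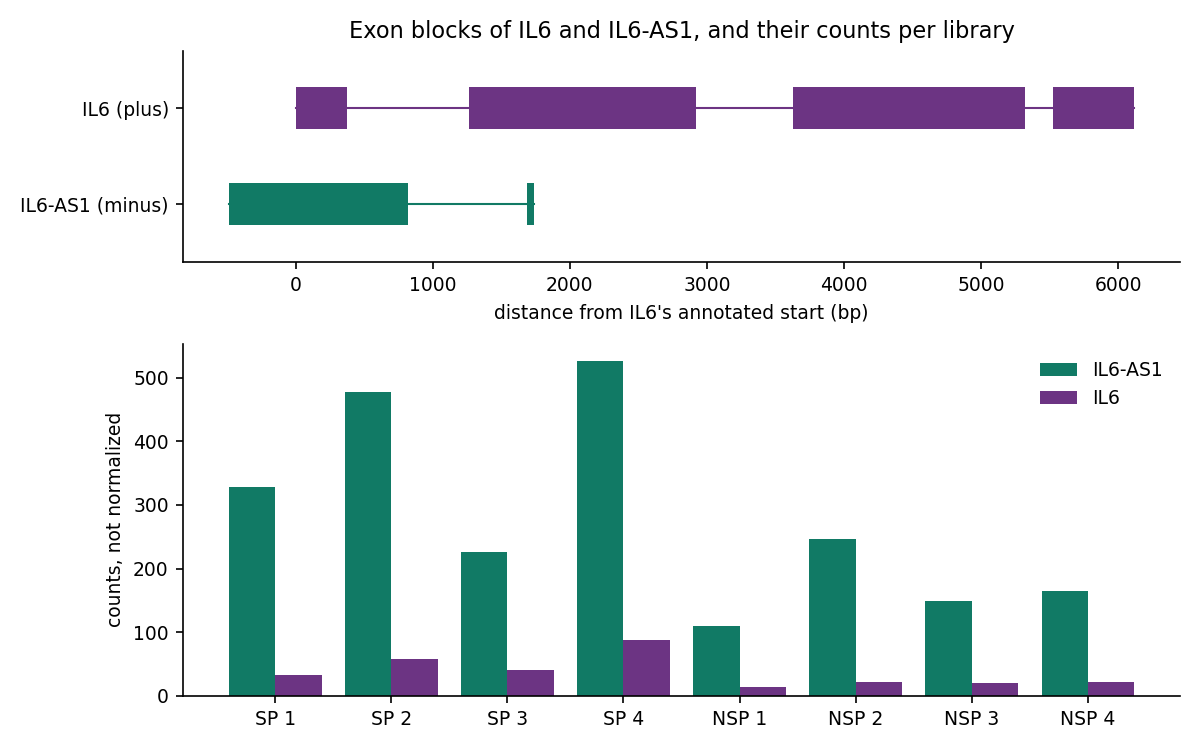
Top, exon blocks of IL6 and IL6-AS1 by distance in bp from the annotated start of IL6; bottom, counts of both genes in each library, not normalized, on a linear axis from 0. IL6-AS1 has more counts than IL6 in all 8 libraries. The IL6 counts of the groups do not overlap, while for IL6-AS1 the 226 counts of SP replicate 3 lie below the 246 of NSP replicate 2 before scaling.

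The genes whose profile over the 8 libraries was most like that of IL6, by the root mean square difference of centred log2(CPM + 1), were the lncRNA ENSG00000247925 (0.22), SBSPON (0.30) and IL6-AS1 (0.31). For NFKBIA, which had the highest mean CPM of the 8 tested NF-kB genes, they were KLF6 (0.19), CRIP2 (0.21) and SDHB (0.22). KLF6 encodes a zinc finger transcription factor and had 44.9 CPM in SP and 26.7 CPM in NSP cells on average (log2 fold change 0.74, adjusted p = 0.0589, edgeR's quasi-likelihood test), which did not pass but was called with the replicate block (0.73, adjusted p = 0.0033). ENSG00000247925 and SBSPON were called higher in SP cells, with log2 fold changes of 1.31 and 1.33.

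The rest of the pathway was taken as 100 genes in lists by role, of which 95 were matched in the table and 47 were tested. CEBPD and ATF3, both in the list of cooperating transcription factors, were called higher in SP cells, and 0 of the 47 were called lower. Among all tested genes edgeR called 1.63% higher and 2.03% lower. DESeq2 called CEBPD and 0 lower, where it called 1.28% of all genes higher and 2.05% lower. Before adjustment, 6 of the 47 with p under 0.05 lay higher in SP and 3 lay lower, where 8.13% of all tested genes did so with SP above and 8.27% with SP below. The median log2 fold change of the 47 was 0.08. CEBPD encodes a bZIP factor that acts with NF-kB on IL6 and is induced in the acute phase response. It had 228 ± 79.6 (SP) and 108 ± 25.7 (NSP) CPM (SD, n = 4 each), with no overlap between the groups (log2 fold change 1.08, standard error 0.23, adjusted p = 0.0142, edgeR's quasi-likelihood test). It was not called without NSP replicate 2, at 1.02. ATF3, a stress-induced factor of the same superfamily, had 13.5 ± 5.34 and 4.87 ± 1.86 CPM (SD, n = 4 each) and a log2 fold change of 1.45 (adjusted p = 0.0423, edgeR). It was not called by DESeq2 or in 6 of the 8 fits without 1 library. ATF3 passed the filter on low counts through its SP libraries, with 13 to 27 counts each against 6 to 12 in NSP libraries. Its call and its part in the median of the 47 therefore rest on the group where it was high.

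Upstream of NF-kB, 0 of 9 tested receptors and adaptors were called higher or lower by edgeR, with 0 at an unadjusted p under 0.05. Among all tested genes 3.66% were called, so 0 calls in lists this short, here and below, are close to that share. The log2 fold changes of the receptors and adaptors ran from -0.33 (TRAF2) to 0.27 (RIPK1). DESeq2 also called 0. TRAF2 and RIPK1 carry the signal from the TNF receptor. Among 6 tested kinases and other subunits 0 were called, with 0 at an unadjusted p under 0.05, and 0 in DESeq2, from -0.32 (MAP3K7, the kinase upstream of the IkB kinases) to 0.16 (RELA, the main activating subunit). RELA had 125 ± 19.1 (SP) and 112 ± 10.4 (NSP) CPM (SD, n = 4 each). REL had 3 counts in SP and 1 in NSP libraries.

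The 8 other tested inhibitors and feedback genes had a median log2 fold change of 0.01 and 0 calls in edgeR or DESeq2. They ran from -0.46 for NFKBIB, which encodes another IkB protein, to 0.58 for NFKBIZ, a nuclear IkB family member. The groups did not overlap for NFKBIB, with 26.4 ± 1.92 (SP) and 36.2 ± 6.44 (NSP) CPM (SD, n = 4 each), the opposite order to NFKBIA. Its unadjusted p was 0.0313 and its adjusted p 0.242 (edgeR's quasi-likelihood test).

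Of 9 tested other targets, 0 were called, with an unadjusted p under 0.05 for 3 with SP above and 2 with SP below in edgeR (8.13% and 8.27% of all tested genes), and 0 called by DESeq2. They ran from -1.21 for PLAU, a secreted protease (adjusted p = 0.106), to 0.69 for IER3, an early response gene (adjusted p = 0.0751, edgeR). IER3 had 193 ± 35.9 CPM in SP and 120 ± 33.7 CPM in NSP cells, and the adhesion molecule ICAM1 93.0 ± 6.41 and 62.8 ± 13.6 CPM (SD, n = 4 each), without overlap of the groups for either. The groups also did not overlap for GADD45B, which encodes a stress-response protein, in the opposite order, with 9.02 ± 2.42 (SP) and 13.8 ± 1.72 (NSP) CPM (log2 fold change -0.59, adjusted p = 0.303, edgeR). With the replicate block, ICAM1 and IER3 were called higher and PLAU lower. Of the cooperating factors, CEBPB was then called higher as well and FOSL1 lower. In that fit 5.89% of all tested genes were called higher and 7.00% lower.

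Only 4 of the 22 other cytokines and chemokines were tested and 0 were called, by edgeR or DESeq2 and also at an unadjusted p under 0.05, with log2 fold changes from -0.46 (CSF1) to 0.76 (IL18). IL6ST, the signalling subunit of the IL6 receptor and the 1 tested gene of 8 cytokine receptors, had a log2 fold change of -0.29 (adjusted p = 0.506, edgeR). CCL2, a monocyte chemokine and NF-kB target that was singled out after its values were seen, had 7, 11, 6 and 7 counts in SP and 0, 0, 2 and 1 in NSP replicates 1 to 4. The groups did not overlap (two-sided exact permutation test on log2(CPM + 1), p = 0.0286), but CCL2 did not pass the filter on low counts. With no filter it was called (log2 fold change 3.32, adjusted p = 9.94e-04, edgeR), and so was CXCL2 (2.005, adjusted p = 0.0338), where 1.15% of all genes were called higher and 1.45% lower. Of the 48 pathway genes that were in the table but not tested, the groups did not overlap for 3 with SP above (CCL2, TNFAIP8 and ACKR3). They also did not overlap for 2 with SP below, the receptors CD40 and TLR4. Among all tested genes this held for 4.78% with SP above and 4.97% with SP below. The share was not counted over all untested genes, so these counts are a description. CD40 had 2, 1, 0 and 2 counts in SP and 10, 11, 4 and 3 in NSP replicates 1 to 4. TLR4 had 1, 0, 4 and 4 counts in SP and 12, 13, 5 and 5 in NSP replicates 1 to 4. With no filter, neither was called (log2 fold changes -2.17 and -1.73, adjusted p = 0.0786 and 0.114, edgeR). TNF, the cytokine that is the classical inducer of NF-kB, had 1 count in SP and 1 in NSP libraries.

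**Figure D4:**
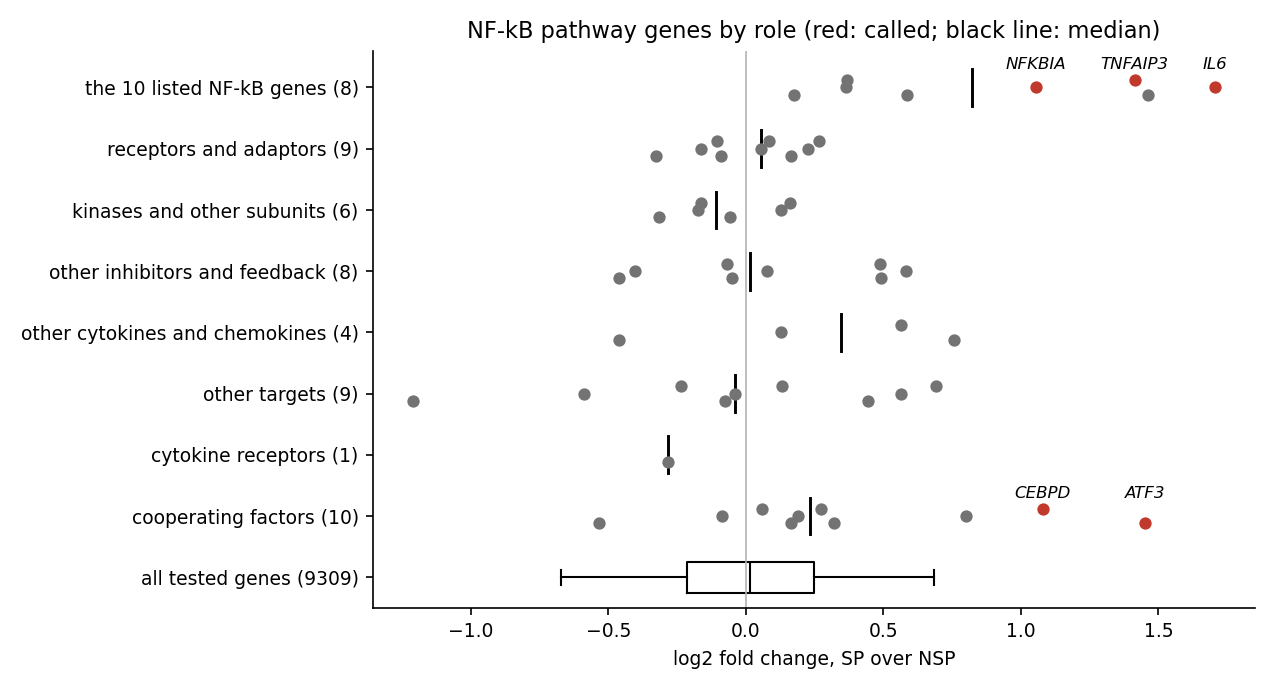
Log2 fold change of SP over NSP cells on the horizontal axis for each tested gene, in rows by role with the number tested in parentheses; points are spread vertically for legibility, red marks called genes and black lines the medians. The box for all tested genes spans percentiles 25 to 75 with whiskers at 5 and 95. Called genes are NFKBIA, TNFAIP3, IL6, CEBPD and ATF3, all to the right of 0, while receptors, adaptors and kinases lie between -0.33 and 0.27.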

How the data were processed

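The 4 SP and 4 NSP libraries of J82 cells were used. The values are raw counts per gene, deposited without normalization. The authors made them with featureCounts on the gencode version 19 annotation, after STAR alignment of the 50-bp single-end reads (hg19). The strand setting is not given in the sources used here. Each library was assigned by its column name. Of 57820 genes, 55538 (96.1%) were matched by identifier to GENCODE version 44 mapped to GRCh37.

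The main test was glmQLFTest of edgeR 4.0.16 (R 4.3.3) on TMM-normalized libraries with no covariate, after filterByExpr (count at least 10, total at least 15), and DESeq2 1.42.0 was an alternative. The standard error is the log2 fold change divided by the square root of F. Exact permutation tests used scipy 1.17.1 and a pseudocount of 1. On simulated counts for 9309 genes of this comparison, edgeR recovered 97% of 4-fold and 66% of 2-fold changes, with 4 false calls among 167. The changes were placed only in genes with a mean over 10 CPM, with trended dispersions and no effect of the replicate number. The recovery rates therefore do not cover genes with a lower mean over all libraries, such as CXCL8 and ATF3. Chi-square per degree of freedom between replicates was 5.61 to 13.5, so none were merged.

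Both groups carry the replicate numbers 1 to 4. SP and NSP libraries with the same number deviated together from their groups (correlations 0.380, 0.203, 0.322 and 0.321) and were therefore regarded as paired. The main fit and the permutation tests were nevertheless unpaired, and the replicate number as a block was run as an alternative. The pairing comes from the data, not from a stated batch.

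The genes and pathway lists were chosen with earlier results of these data known. Named genes were the 10 genes, called pathway genes, the highest and lowest tested gene of each list, opposite-strand partners and the 3 genes most like NFKBIA and IL6; others were chosen after their values were seen. IKBKG, IKBKE, OTUD7B, CCL5 and SOD2 were not matched.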

Additional observations from a re-analysis of the deposited data

Results flagged for a closer look

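In 4 of 50 groups of 4 libraries of the genes named, a single library stood apart from the remaining 3; by chance about 1 group in 20 would. The gap to the nearest library, as a share of the range of the group, was 0.906 for CXCL8 in SP cells, where replicate 4 had 29.4 CPM and the others 6.50 to 8.65. It was 0.837 for TNFAIP3 in NSP cells, where replicate 2 had 7.41 CPM and the others 15.9 to 17.6, and 0.842 for RELB in NSP cells, where replicate 3 had 8.93 CPM and the others 24.7 to 27.7. It was 0.892 for ATF3 in NSP cells, where replicate 3 had 7.65 CPM and the others 3.72 to 4.15.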

How the results depend on the processing

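NFKBIA and IL6 kept their direction and their call under all alternatives that were run, and TNFAIP3 under all but the 3 left-out libraries named with it. With the replicate block, 548 genes were higher and 652 lower overall in place of 152 and 189, 5 pathway genes were higher and 2 lower in place of 2 and 0, and CXCL8 was called at 1.38; the block changed no other call among the 8 tested genes. Without a filter on low counts, 303 genes were higher and 381 lower, 5 of the 10 NF-kB genes were higher in place of 3, since CXCL8 (1.44) and CXCL2 were also called, and 5 pathway genes were higher and 1 lower. DESeq2 called 1 pathway gene higher.

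With single libraries left out, the NF-kB genes higher in SP numbered 2 to 3 and those lower 0 to 0, the pathway genes higher 0 to 3 and lower 0 to 1, and all genes higher 69 to 164 and lower 89 to 181, lowest without NSP replicate 2 (69 and 89); the count higher also fell to 91 without SP replicate 2, where 110 were lower, and to 93 without NSP replicate 1. The log2 fold changes ran from -0.10 to 0.32 for NFKB2 (-0.10 without SP replicate 1, -0.03 without NSP replicate 3), 0.13 to 0.67 for NFKB1, 0.11 to 0.56 for RELB, 1.17 to 1.62 for TNFAIP3, 0.72 to 1.71 for CXCL8 and 0.16 to 0.83 for CXCL1. The causes were not tested. CXCL2 and IL1B have too few counts for firm statements at this depth.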

Other observations

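CXCL3, CXCL5 and CXCL6 encode chemokines that act on the same receptors as CXCL8, and their counts were too low for the test. CXCL3 had 0, 6, 2 and 9 counts in SP and 2, 3, 1 and 8 in NSP replicates 1 to 4, with the groups overlapping. CXCL5 had 0 to 4 counts in SP and 1 to 3 in NSP libraries, and CXCL6 0 to 1 and 0 to 2. IL6R, the ligand-binding subunit of the IL6 receptor, had 6, 7, 6 and 7 counts in SP and 7, 3, 3 and 2 in NSP replicates 1 to 4 and did not pass the filter.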
